A study of Rattus norvegicus with 12 samples.

Results

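Astrocytes are glial cells that take up glutamate and potassium released by neurons, pass ions and metabolites to each other through gap junctions, and wrap blood vessels with endfeet rich in water channels. In the arcuate nucleus (ARC) of the hypothalamus they lie between the neurons of energy balance and the tanycytes, glial cells that line the ventricle and share several astrocyte transcripts, Gfap and Sox9 among them. The astrocyte genes described here were 10 that mark these cells and carry out their main tasks: Gfap, Aqp4, Mlc1, Gja1, Glul, Aldoc, Agt, S100b, Sox9 and Fgfr3. They were found by their gene symbol in the annotation of the array, keeping only probe sets (groups of short probes against 1 transcript) that carry 1 symbol. By this rule 9 of the 10 genes were measured, by 16 probe sets, among 14217 genes and 20826 probe sets in all. No such probe set carried Sox9, a transcription factor of glial identity, and it was not analysed here. Where a gene had several probe sets, the brightest over all arrays was taken as its main one.

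The tissue was the ARC of male Wistar rats at 3 months of age, cut by laser from stained brain sections of 14 µm, with 6 recuperated and 6 control animals and 1 animal per array. Recuperated animals were born to dams fed a diet of 8% protein in pregnancy and were nursed from postnatal day 3 by control dams, in litters culled to fewer pups, all of them male. Control animals were born to and suckled by control dams, in litters that kept both sexes. All animals were fed standard chow after weaning, and litters were the unit of replication. The comparison asked whether this early nutrition left a difference in ARC gene expression in adult offspring. Values are log2 expression made with RMA, so 1 unit is a doubling of signal, and differences were taken after subtraction of each array's median. A laser-cut region holds all its cell types, and fewer astrocytes cannot be told apart from less RNA per astrocyte in these values.

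Recuperated array 4 stood apart from the other arrays and is treated separately throughout. On it the mean of 5 genes of the neighbouring ventromedial nucleus lay 3.52 above the array median, against 0.39 to 1.74 on the other 11 arrays. The mean of 9 ARC genes lay 0.65 above it there and 2.84 to 3.15 above it elsewhere. Markers of tanycytes and ependyma averaged -0.60 there and 1.13 to 1.69 elsewhere. The signal of the actin control transcript at its 3' end over its 5' end, which grows as RNA breaks down, averaged 1.56 ± 0.36 in recuperated and 1.47 ± 0.20 in control arrays on the log2 scale (SD, n = 6 each; exact permutation test, two-sided, p = 0.576). Recuperated array 4 had the highest value of the 12 arrays, at 1.96, where the others spanned 1.04 to 1.90.

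The promoters of Gfap and Mlc1 are shown because these genes lay furthest below the other arrays on recuperated array 4. Another reason was their correlation over all arrays (Pearson r = 0.79, permutation p = 0.00431, adjusted p = 0.0776). That correlation fell to r = 0.56 without recuperated array 4, and it did not pass adjustment. Each run is written 5′ to 3′ on the gene's own strand, covers 250 bases before and 50 bases after the RefSeq start, and comes from RefSeq on GRCr8. Gfap lies at chr10:88361612-88361911 and Mlc1 at chr7:121946649-121946948, both on the minus strand. The Mlc1 gene spans 121926356 to 121949484, so its window lies inside the gene, at a start that is not the outermost. Capitals mark AATAAAGG and TTGGC, or its reverse complement.
Gfap promoter: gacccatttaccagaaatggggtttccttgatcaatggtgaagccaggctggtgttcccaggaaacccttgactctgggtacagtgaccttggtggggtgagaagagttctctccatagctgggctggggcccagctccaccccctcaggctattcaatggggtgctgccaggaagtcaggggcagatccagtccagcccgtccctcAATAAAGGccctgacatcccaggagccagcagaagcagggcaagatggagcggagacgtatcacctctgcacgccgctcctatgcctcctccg
Mlc1 promoter: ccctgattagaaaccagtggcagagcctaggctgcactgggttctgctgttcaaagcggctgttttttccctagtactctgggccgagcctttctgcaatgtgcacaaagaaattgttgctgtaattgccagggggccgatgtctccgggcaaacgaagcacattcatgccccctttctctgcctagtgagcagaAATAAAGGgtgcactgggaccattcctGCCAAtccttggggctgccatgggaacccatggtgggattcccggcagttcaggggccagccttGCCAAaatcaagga
The run AATAAAGG, chosen after these sequences were seen, begins 43 bases before the start in Gfap and 55 bases before it in Mlc1. It was found on either strand in 1.2% of the 33469 rat promoters in the table. TTGGC, a half-site of nuclear factor I, was in 45.8% of all promoters, at 2 places in that of Mlc1 and at none in this window of Gfap. The table held 10 promoters for 8 of the 10 genes, of which 4 had TTGGC, and no entry for Agt or Sox9. A match of letters is a description of the sequence and was not tied to any measurement here.

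All 9 measured genes lay above the array median on all 12 arrays, in recuperated and control animals alike. The main probe sets are shown by array in the plot of log2 expression.

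**Figure D1:**
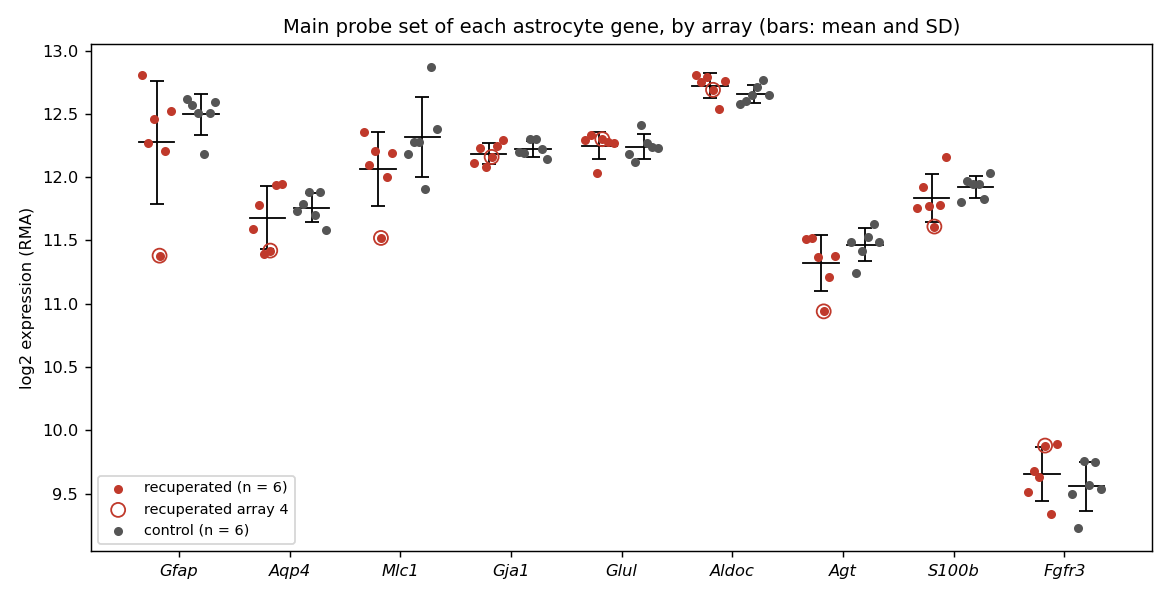
Log2 expression (RMA) of the main probe set of 9 astrocyte genes on each array, recuperated in red and control in grey, with the group mean and its SD drawn as bars (n = 6 each) and a ring around recuperated array 4. The groups overlap for every gene, and the ringed array is the lowest of all 12 for Gfap, Mlc1, Agt and S100b.

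Gfap encodes the intermediate filament that defines the astrocyte cytoskeleton and is the usual stain for these cells. It read 11.38, 12.37 and 12.81 in recuperated animals (lowest, median and highest), against 12.18, 12.54 and 12.62 in controls. Recuperated animals thus held both the lowest and the highest value, and the groups overlapped. The log2 fold change was -0.24 (standard error 0.20, 95% interval -0.67 to 0.19), and the exact permutation test, two-sided, gave p = 0.314. Without recuperated array 4 the log2 fold change was -0.06.

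Of the genes for water, ions and cell contacts, Aqp4 encodes the water channel of the endfeet. Aqp4 read 11.39, 11.68 and 11.95 in recuperated animals, against 11.58, 11.76 and 11.88 in controls, so that the recuperated values reached beyond the control range on both sides. Recuperated and control animals differed by a log2 fold change of -0.10 (exact permutation test, p = 0.383, standard error 0.13), which was -0.05 without recuperated array 4 and -0.04 without recuperated array 3. Mlc1 encodes a membrane protein of the endfeet whose loss causes a leukodystrophy with brain swelling in humans. It read 11.52, 12.14 and 12.36 in recuperated animals, against 11.91, 12.28 and 12.87 in controls, with the highest value in control array 5. Its log2 fold change of -0.27 was the most negative among the main probe sets (standard error 0.17, 95% interval -0.65 to 0.10; exact permutation test, p = 0.165), and was -0.16 without recuperated array 4 and -0.17 without control array 5. Gja1 encodes connexin 43, the main gap junction protein of astrocytes. Gja1 read 12.08, 12.20 and 12.29 in recuperated animals, against 12.14, 12.21 and 12.30 in controls, and these ranges nearly coincided. The log2 fold change was -0.06 (standard error 0.10, 95% interval -0.27 to 0.15; exact permutation test, p = 0.193).

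The genes of metabolism had the smallest differences between groups by their main probe sets. Glul encodes glutamine synthetase, which turns glutamate taken up from synapses into glutamine. Glul read 12.03, 12.29 and 12.33 in recuperated animals, against 12.12, 12.23 and 12.41 in controls, with recuperated array 3 below all others. Its log2 fold change of -0.01 (standard error 0.10, 95% interval -0.23 to 0.21; exact permutation test, p = 0.896) was 0.01 without the subtraction of array medians and had no settled sign. Aldoc encodes the brain form of aldolase, an enzyme of glycolysis. It read 12.54, 12.75 and 12.81 in recuperated animals, against 12.58, 12.65 and 12.77 in controls, and the groups overlapped. The log2 fold change was 0.04 (standard error 0.10; exact permutation test, p = 0.370).

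Of the secreted proteins, Agt encodes angiotensinogen, the precursor of the angiotensins, which in the brain is made mainly by astrocytes. Agt read 10.94, 11.38 and 11.52 in recuperated animals, against 11.24, 11.49 and 11.63 in controls. Recuperated arrays 4 and 5 were below every control, and the other recuperated arrays lay inside the control range. The log2 fold change was -0.17 (standard error 0.13, 95% interval -0.43 to 0.10; exact permutation test, p = 0.132, the smallest among the 9 genes), and -0.09 without recuperated array 4. S100b encodes a calcium-binding protein that astrocytes also release. It read 11.61, 11.77 and 12.16 in recuperated animals, against 11.80, 11.95 and 12.03 in controls. Here 5 of the 6 recuperated values lay outside the control range, 4 of them below it and 1 above it. For S100b the log2 fold change was -0.11 (standard error 0.12; exact permutation test, p = 0.240), and -0.06 without recuperated array 4.

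Fgfr3 encodes a fibroblast growth factor receptor that astrocytes keep from their precursors. Fgfr3 read 9.34, 9.66 and 9.89 in recuperated animals, against 9.23, 9.55 and 9.76 in controls, and recuperated array 4 was among its higher values at 9.88. The log2 fold change was 0.08 (standard error 0.13, 95% interval -0.20 to 0.35; exact permutation test, p = 0.5). It was 0.03 without recuperated array 4 or 6 and 0.01 without control array 2.

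At the study's threshold of 1.3-fold with P under 0.05, 0 of the 9 genes were called by limma, a linear model fitted across all probe sets, where 2.47% of the 31042 probe sets tested were called. The same count was 0 of 9 without recuperated array 4. All 9 had an adjusted p = 0.999 from limma with Benjamini-Hochberg adjustment over all probe sets, where 0% of probe sets had an adjusted p under 0.05. Without adjustment 0 of the 9 had a p under 0.05, and 1071 of all probe sets did. Groups that did not overlap were found for 0 of the 9 genes, against 0.119% of all probe sets. Of the 9 log2 fold changes, 7 were negative and 2 positive, with a median of -0.10, and 56.6% of all probe sets were negative, with a median of -0.028. Without recuperated array 4 the median of the 9 genes was -0.05 and that of all probe sets -0.026, and 7 were again negative.

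A missed threshold does not show that levels were alike, and the intervals say how large a difference these arrays allow. For 5 genes, Gja1, Glul, Aldoc, S100b and Fgfr3, the 95% interval lay inside 1.3-fold in both directions. That of Gja1 ran from 0.83-fold to 1.11-fold and that of Glul from 0.85-fold to 1.16-fold. For Gfap it ran from 0.63-fold to 1.14-fold, for Mlc1 from 0.64-fold to 1.07-fold, for Agt from 0.74-fold to 1.07-fold and for Aqp4 from 0.77-fold to 1.13-fold. These 4 genes thus reached below the threshold on the lower side but not above it on the upper side.

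**Figure D2:**
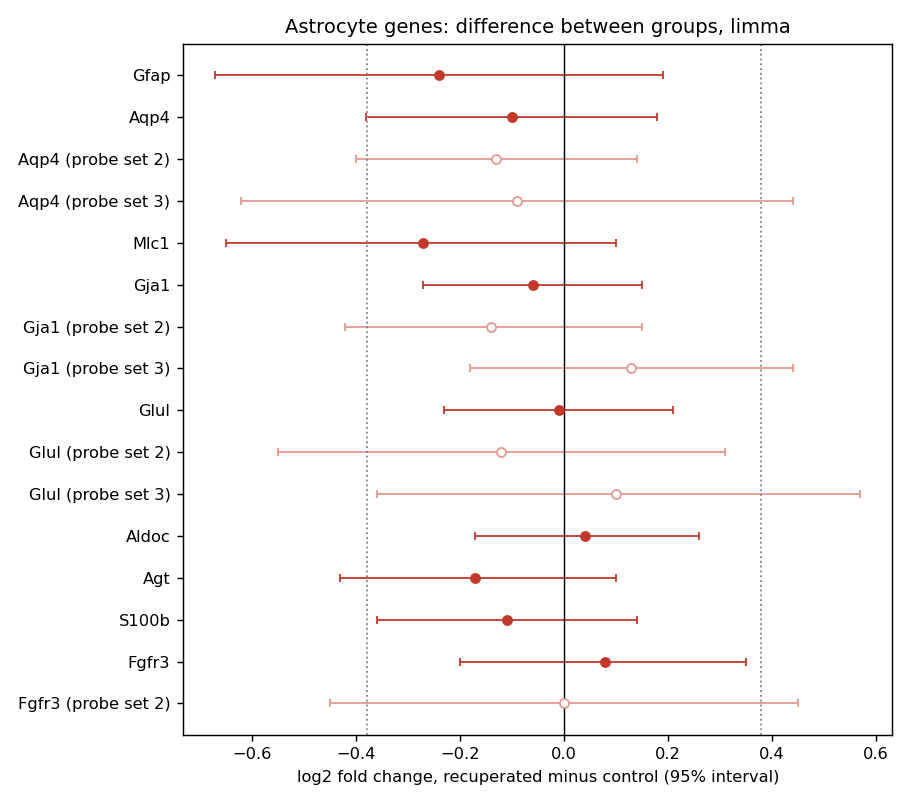
Each astrocyte probe set by its log2 fold change (recuperated minus control) and 95% interval from limma, main probe sets filled and others open, with dotted lines at 1.3-fold. Every interval crosses 0, and those of Gja1, Glul and Aldoc are the narrowest among the main probe sets.

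With the other 7 probe sets of these genes included, 0 of 16 had an unadjusted p under 0.05, and log2 fold changes ran from -0.27 to 0.13. Some of their intervals were wide, from 0.65-fold to 1.36-fold for the dimmest Aqp4 probe set and from 0.78-fold to 1.48-fold for the dimmest Glul probe set. The second Aqp4 probe set had a mean of 11.58 ± 0.22 in recuperated and 11.69 ± 0.16 in control arrays (SD, n = 6 each), and a log2 fold change of -0.13. The dimmest Aqp4 probe set ran the other way on recuperated array 4. It read 8.31 there, its highest value, where the others spanned 6.75 to 8.00, whereas the main Aqp4 probe set read 11.42 on the same array, near the low end of its 11.39 to 11.95. The dimmer pair of Glul probe sets had log2 fold changes of -0.12 (standard error 0.20) and 0.10 (standard error 0.22), on either side of 0. The dimmest Gja1 probe set, at 2.53 ± 0.26 in recuperated and 2.38 ± 0.17 in control arrays, and the second Fgfr3 probe set, at 5.09 ± 0.45 and 5.07 ± 0.29 in the same order (SD, n = 6 each), lay below the array median on all arrays. How strongly a probe set binds is its own property, and which transcripts each one reads is not given by the annotation used here.

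The main probe sets also differed in how steady they were. Their spread between arrays of the same group, as a pooled SD of log2 values, was 0.07 for Gja1, 0.08 for Aldoc and 0.10 for Glul. Of the 15622 probe sets that exceeded the array median on 6 or more arrays, 0.192%, 0.358% and 1.36% had a smaller spread than these in turn. Those probe sets were not matched to these genes in brightness. S100b had a spread of 0.15, Agt of 0.18 and Aqp4 and Fgfr3 of 0.19 each. Mlc1, at 0.30, and Gfap, at 0.37, were the most variable, with 50.9% and 68.7% of those probe sets steadier. The median spread was 0.18 for the main probe sets of the 9 genes and 0.30 for the 15622 probe sets. Other probe sets of the same genes were mostly less steady than the main ones. The other Glul probe sets had a spread of 0.37 and 0.41, the second Gja1 probe set 0.20 and the dimmest Aqp4 probe set 0.47. The second Aqp4 probe set had 0.18, and the probe sets of Gja1 and Fgfr3 below the array median had 0.23 and 0.38. By main probe sets the SD was larger in recuperated than in control animals for 8 of the 9 genes, the exception being Mlc1. Without recuperated array 4 this held for 7 of the 9. The share of all probe sets with a larger SD in recuperated animals is not given here. Weights fitted to each array over all probe sets, lower for noisier arrays, were 0.536, 0.574 and 0.658 for recuperated arrays 4, 5 and 1. The other arrays had 0.786 to 1.8. A wider spread in recuperated animals was thus not shown to be particular to these genes, and no test of this difference in spread was made.

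Of the 9 genes, 4 had their lowest value on recuperated array 4, which is 44.4%, while 13.5% of all probe sets and 15.6% of the brighter 15622 did. They were Gfap at 11.38, against 12.18 to 12.81 on the other arrays, Mlc1 at 11.52 against 11.91 to 12.87, Agt at 10.94 against 11.21 to 11.63, and S100b at 11.61 against 11.76 to 12.16. Gja1 at 12.16, Glul at 12.30, Aldoc at 12.69 and Fgfr3 at 9.88 lay inside the range of the other arrays. Aqp4, at 11.42, was near the low end of the other arrays, which spanned 11.39 to 11.95. Astrocyte genes therefore did not all shift together on this array. The part of the ventromedial, ARC and tanycyte markers in these values was not tested.

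**Figure D3:**
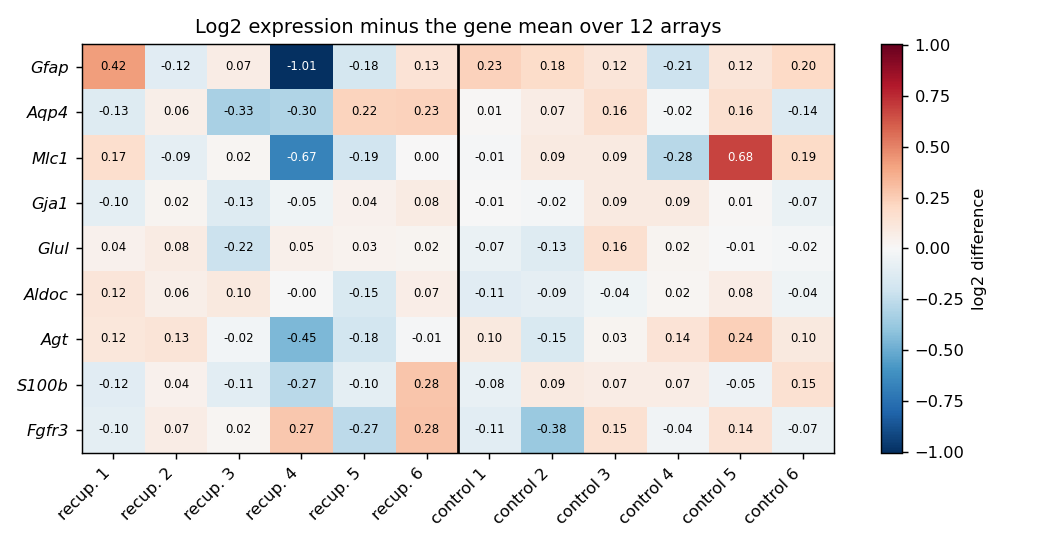
Log2 expression of each astrocyte gene on each array minus the mean of that gene over all 12 arrays, recuperated arrays left of the line and control arrays right of it, red above and blue below the mean. Recuperated array 4 is darkest blue for Gfap, Mlc1 and Agt and near white for Gja1, Glul and Aldoc, and control array 5 is darkest red for Mlc1.

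Among the 36 pairs of these genes, 24 had a positive correlation over the 12 arrays, with a median Pearson r of 0.23. After adjustment over the 36 pairs 0 had an adjusted p under 0.05, with 5 at an unadjusted p under 0.05 by a permutation test of 100000 resamples. There were 2 such pairs and 21 positive ones without recuperated array 4, with a median r of 0.16. These 2 were Aqp4 with Gja1 and Gja1 with Glul. Gja1 and Glul had r = 0.58 over all arrays (permutation p = 0.0456, adjusted p = 0.328) with rho = 0.24. Their r was 0.64 without recuperated array 4 (permutation p = 0.0334) and 0.29 without the 2 arrays farthest from the median of Gja1. The closest pair was Aqp4 and Gja1, the water channel and the gap junction protein (r = 0.81, permutation p = 0.00148, adjusted p = 0.0533; Spearman's rho = 0.76, permutation p = 0.00594, adjusted p = 0.107). Without recuperated array 4 its r was also 0.81, and without the 2 arrays farthest from the median of Aqp4 it was 0.64. Within the groups r was 0.94 in recuperated and 0.26 in control animals (n = 6 each, no test of the difference).

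Gfap and Mlc1 followed (r = 0.79, permutation p = 0.00431, adjusted p = 0.0776; rho = 0.82, permutation p = 0.00180, adjusted p = 0.0648). Their r was 1.00 in recuperated and 0.46 in control animals, and 0.56 without recuperated array 4, and it was 0.59 without the 2 arrays farthest from the median of Gfap. Agt ran with Mlc1 (r = 0.74, permutation p = 0.0108, adjusted p = 0.129; rho = 0.55, permutation p = 0.0662, adjusted p = 0.596) and with Gfap (r = 0.74, permutation p = 0.0246, adjusted p = 0.221; rho = 0.43, permutation p = 0.171, adjusted p = 0.791). Without recuperated array 4 these were 0.45 and 0.18, and without the 2 arrays farthest from the median of the first gene 0.36 and 0.07, so both rested on few arrays.

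**Figure D4:**
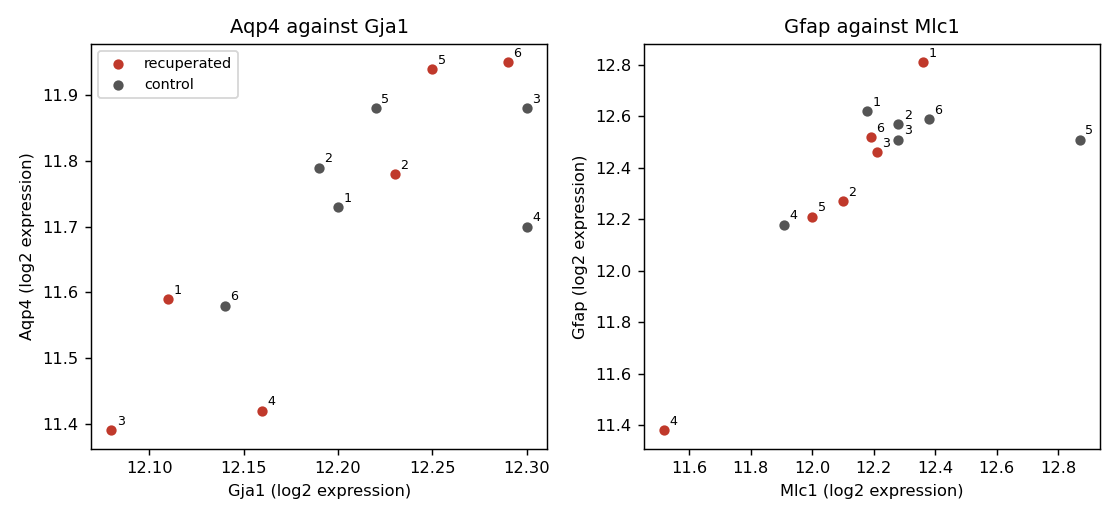
Log2 expression of Aqp4 against Gja1 (left) and of Gfap against Mlc1 (right), 1 point per array, recuperated in red and control in grey, numbered by animal. The Aqp4 and Gja1 points rise together with recuperated array 4 among them, whereas recuperated array 4 lies far below the other points for Gfap and Mlc1.

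The mean of the 9 genes above the array median was 5.26 to 5.65 on recuperated arrays, against 5.54 to 5.70 on control arrays. Recuperated array 4 was lowest at 5.26, and the other arrays spanned 5.48 to 5.70. Of 8960 genes outside all lists used here, whose main probe set exceeded the array median on 6 or more arrays, the 5 whose pattern over the 12 arrays was most like this mean were Mgst1, Csgalnact1, Dock11, Synm and Tifab. Pearson's r was 0.91 for Mgst1, a glutathione transferase of membranes, 0.89 for Csgalnact1, an enzyme of chondroitin sulphate synthesis, 0.89 for Dock11, 0.88 for Synm, an intermediate filament protein, and 0.88 for Tifab. Without recuperated array 4 these were 0.73, 0.69, 0.64, 0.79 and 0.63 in turn.

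A wider list of 33 astrocyte genes, of which 30 were measured, was compared in the same way. It had 7 positive and 23 negative log2 fold changes, with a median of -0.06, where 56.6% of all probe sets were negative. Of the 30, 1 was called at 1.3-fold with P under 0.05, lower, beside 2.47% of all probe sets. After adjustment over all probe sets 0 were called by limma. The gene called was Kcnj10, which encodes Kir4.1, the potassium channel through which astrocytes clear potassium. Kcnj10 read 4.64 to 6.16 in recuperated animals, with means of 5.69 ± 0.58 in recuperated and 6.27 ± 0.36 in control animals (SD, n = 6 each). The recuperated values were 6.16, 6.16, 5.92, 5.87, 4.64 and 5.41, against 5.86 to 6.91 in controls. It was a dim probe set, above the array median on 2 of 12 arrays, and recuperated arrays 5 and 6 alone lay below every control. Its log2 fold change was -0.60 (standard error 0.25, 95% interval -1.13 to -0.07; exact permutation test, p = 0.0390; adjusted p = 0.999 from limma), and -0.63 without recuperated array 4. The call was lost with the methods' t-test and with a filter that drops dim probe sets. Leaving out recuperated array 5 (-0.39) or 6 (-0.54), or control array 3 (-0.57) or 4 (-0.47), also ended it.

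The next genes of this list by p did not pass the threshold. Apoe, the lipid carrier that astrocytes secrete, averaged 12.12 ± 0.60 in recuperated and 12.49 ± 0.26 in control animals (SD, n = 6 each), with its lowest value of 11.16 on recuperated array 4. Its log2 fold change was -0.39 (standard error 0.25; exact permutation test, p = 0.195), and -0.20 without that array. Acsbg1, an acyl-CoA synthetase, averaged 9.24 ± 0.10 in recuperated and 9.38 ± 0.13 in control animals (SD, n = 6 each). For Acsbg1 the exact permutation test gave p = 0.0281 while limma gave an unadjusted p = 0.144, with a log2 fold change of -0.16. Slc1a3, the glutamate transporter GLAST, differed by -0.17 on the log2 scale (standard error 0.12; exact permutation test, p = 0.113), and Slc1a2, the other main glutamate transporter, of 0.02 (standard error 0.18), which turned to -0.11 without recuperated array 4, its highest value.

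A list of 13 genes that rise when astrocytes react to injury or inflammation had 12 measured members. Of these, 3 were above the array median on all arrays. By their main probe sets 1 had a positive and 11 a negative log2 fold change, with a median of -0.28, where 56.6% of all probe sets were negative. At 1.3-fold with P under 0.05 limma called 0 of the 12, beside 2.47% of all probe sets, and 0 also without the fold threshold. Without recuperated array 4 the median was -0.06. A second, dimmer probe set of Cp, the copper carrier ceruloplasmin, did pass that threshold. It averaged 6.08 ± 0.67 in recuperated and 6.70 ± 0.33 in control animals (SD, n = 6 each), with overlapping groups and its lowest value of 4.90 on recuperated array 4. This probe set had a log2 fold change of -0.64 (exact permutation test, p = 0.0455; adjusted p = 0.999 from limma) and -0.40 without recuperated array 4, where the call was lost. The main Cp probe set gave -0.36, and -0.03 without that array. On that array 6 of the 12 had their lowest value, among them Timp1, an inhibitor of matrix proteases, at 4.69 against 6.74 to 7.77, and the intermediate filament gene Vim, which is also a tanycyte marker, at 7.94 against 10.15 to 11.07. Among main probe sets the smallest p was that of Socs3, a feedback inhibitor of cytokine signalling. Socs3 read 3.33, 3.52 and 4.13 in recuperated animals, against 3.47, 4.15 and 5.11 in controls, below the array median on all arrays. The Socs3 difference was -0.50 on the log2 scale (standard error 0.24; exact permutation test, p = 0.0844). The differences on the log2 scale were -0.42 for C3, of the complement system (standard error 0.34, and -0.27 without recuperated array 4), and -0.30 for Lcn2, lipocalin 2 (standard error 0.24). Lcn2, like Socs3, lay below the array median on all arrays.

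Markers of other cell types are given as the mean of each list above the array median. Tanycyte and ependymal markers (11 of 13 measured, 4 above the median on all arrays) spanned -0.60 to 1.69 on recuperated arrays, against 1.13 to 1.60 on control arrays. Neuronal markers (8 of 8 measured, 8 above the median on all arrays) spanned 4.50 to 5.35 on recuperated and 4.70 to 4.90 on control arrays, and oligodendrocyte markers (7 of 8 measured, 6 above on all arrays) 2.70 to 3.35 and 2.88 to 3.20 in the same order. For the oligodendrocyte list, the recuperated arrays other than array 4 spanned 2.70 to 2.90. With that array left out, all 7 markers had a negative log2 fold change, with a median of -0.21, and with all arrays the median was -0.10. Without it all 9 ARC and all 5 ventromedial markers were negative too. So were 7 of 11 tanycyte and ependymal, 6 of 8 neuronal and 6 of 7 microglial markers, but 2 of 6 endothelial ones. The median of all probe sets was then -0.026, and their negative share without that array is not given here. Microglial markers (7 of 7 measured, 5 above on all arrays) spanned 0.58 to 1.52 on recuperated and 1.16 to 1.56 on control arrays, and endothelial markers (6 of 6 measured, 3 above on all arrays) 0.56 to 1.08 and 0.68 to 0.99. Recuperated array 4 held the microglial 0.58 and the neuronal 5.35, where the other arrays spanned 1.07 to 1.56 and 4.50 to 4.90 in turn. Of 10 relations of the mean of the 9 astrocyte genes, with the 9 other lists and with the actin measure, 0 had an adjusted p under 0.05. The strongest was with the ARC list (r = 0.81, permutation p = 0.0247, adjusted p = 0.111; rho = 0.27, permutation p = 0.405, adjusted p = 0.956). It was 0.19 without recuperated array 4 and 0.13 without the 2 farthest arrays, and the relation with tanycyte and ependymal markers (r = 0.73, permutation p = 0.0636, adjusted p = 0.111; rho = -0.02, permutation p = 0.956, adjusted p = 0.956) turned to -0.23 without that array and to -0.10 without the 2 farthest. Their part in the astrocyte values was not tested.

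**Figure D5:**
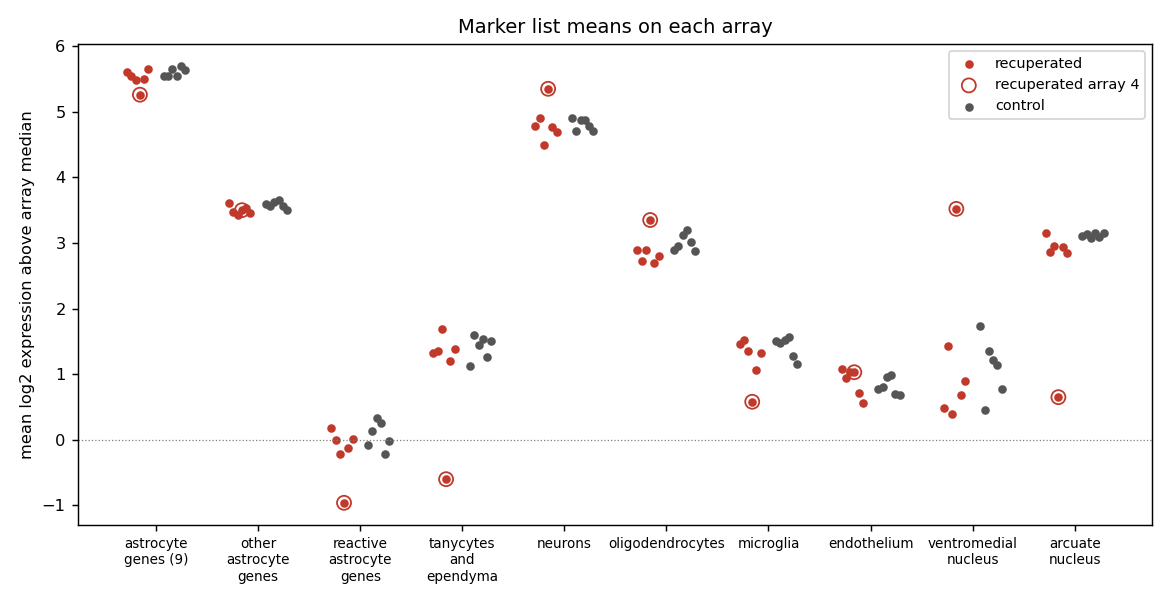
Mean log2 expression above the array median of each marker list on each array, recuperated in red and control in grey, with a ring around recuperated array 4. The ringed array is far from the others for the ventromedial nucleus (3.52), the ARC (0.65), tanycytes and ependyma (-0.60) and the reactive astrocyte genes (-0.96). It is the lowest for the 9 astrocyte genes (5.26) and inside the range of the others for the wider astrocyte list (3.50). Neuronal (5.35) and oligodendrocyte (3.35) means are highest on it, and the microglial mean (0.58) is lowest.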

How the data were processed

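ARC RNA from 6 recuperated and 6 control rats was amplified and hybridised to Affymetrix rat arrays, 1 animal per array. The authors deposited log2 expression values of 31099 probe sets made with RMA (background correction, quantile normalization and median polish). Expression Console is the software in the submitters' processing notes, and GeneSpring GX that in the methods. From these, 57 Affymetrix control probe sets were set aside, each array's median was subtracted as the methods set chips to their 50th centile, and the groups were compared over 31042 probe sets with limma 3.58.1 (R 4.3.3), with Benjamini-Hochberg adjustment. For single genes an exact permutation test (two-sided) was added, whose smallest possible p is 0.00216. Correlations were run on the same median-subtracted values, with 100000 resamples (Python 3.11.15, scipy 1.17.1).

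The genes and lists were chosen with earlier results of these data known. Named genes were all members, the 4 smallest p of each astrocyte list with every gene called, and the 5 genes most like the members' mean. Timp1, one of those 4 of the reactive list, is given beside Vim, the Cp probe sets and Slc1a2, which were chosen after their values were seen, as were the promoters shown. Alternatives were folds from linear means, no median subtraction, quantile normalization, the methods' t-test, removal of dim probe sets, array weights, averaging a gene's probe sets, a block on animal number, and each array left out in turn. The fit was tested on simulated data. The number of arrays limits the precision, and no scan dates or batches were given.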

Additional observations from a re-analysis of the deposited data

Results flagged for a closer look

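Of 38 groups of 6 arrays examined, 9 genes and 10 list means in each condition, 7 held an array far from the rest of its group. Chance gives about 1 in 20 for a single group. These groups were not independent, since they shared arrays, and the reactive and tanycyte lists shared Vim and Nes. The count of 7 was therefore not set against chance. Gfap was low on control array 4, at 12.18, where the other controls spanned 12.51 to 12.62. Glul was low on recuperated array 3, at 12.03, against 12.27 to 12.33 on the other recuperated arrays. The remaining 5 were all on recuperated array 4 and all concerned list means above the array median. Among the other recuperated arrays the reactive astrocyte genes, at -0.96 on array 4, spanned -0.21 to 0.18, and the tanycyte and ependymal markers, at -0.60, spanned 1.20 to 1.69. Oligodendrocyte markers, at 3.35, spanned 2.70 to 2.90 elsewhere in the group, ventromedial nucleus markers, at 3.52, 0.39 to 1.43, and ARC markers, at 0.65, 2.84 to 3.15. The 9 astrocyte genes themselves gave no such array by their mean.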

How the results depend on the processing

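The counts of the 9 astrocyte genes called at 1.3-fold and after adjustment were 0 under all 20 alternatives, and their median log2 fold change stayed between -0.15 and -0.04. Every gene but Glul kept its sign. The log2 fold change of Glul was 0.01 without median subtraction and 0.01 after quantile normalization, and it spanned -0.03 to 0.03 when single arrays were left out. Of the wider astrocyte list, 0 genes were called with the filter on dim probe sets, which removes Kcnj10, and 0 with the methods' t-test (Kcnj10). Over 19 alternatives the unadjusted p of Kcnj10 from the fits across all probe sets (limma, or that test) spanned 0.0169 to 0.0754, with a smallest adjusted p = 0.937. Between 0 and 2 were called when single arrays were left out, with Apoe joining without recuperated array 1. Of the reactive list 0 to 1 were called, Socs3 without control array 1 or 5 or recuperated array 1. The number of correlated pairs and of list relations past adjustment was 0 without recuperated replicate 4 and without median subtraction. With the animal number as a replicate block, 0 of the 9 genes were called, and the block changed no call in the astrocyte lists. The labels do not say whether the numbers pair the animals. Deviations of animals with the same number correlated between -0.162 and 0.08, and 1 of 6 recuperated animals correlated best with its own number. No pairing was visible, but so few animals cannot exclude one. Signal over background is not given for these values, and the 6 arrays per group limit the precision.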
